A study of Mus with 2 samples.

Results

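The 10 genes described here form the core of the p53 and DNA damage kinase pathway: *Trp53*, *Mdm2*, *Ccng1*, *Phlda3*, *Zmat3*, *Trp53inp1*, *Aen*, *Atm*, *Atr* and *Chek1*. They were chosen by gene symbol, each symbol matched 1 row, and they are 10 of the 27998 genes in the count matrices. Hematopoietic stem cells (HSCs; LSK FLT3- CD150+ CD48-) were sorted from tibias and fibulas, the mice being 8 to 12 weeks old, and single cells were captured with 10x Genomics Chromium. One library held Mx1-Cre Id2+/+ cells and the other Mx1-Cre Id2-deleted cells, each from 5 pooled mice and 1000 sorted cells. Both groups carry the Mx1-Cre transgene, which the interferon inducer pIpC switches on in hematopoietic and some other cells, and the study took the HSCs after pIpC treatment, which deletes floxed *Id2*. *Id2* encodes an inhibitor of bHLH transcription factors, and the comparison asks how its loss changes HSC transcripts.

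p53, the product of *Trp53*, is a transcription factor held at low protein levels by the ubiquitin ligase MDM2. After DNA damage the kinases ATM and ATR, and CHK1 downstream of ATR, phosphorylate p53 and its partners, p53 accumulates, and it transcribes genes that arrest the cycle, repair DNA or start cell death. In HSCs this pathway is known for its part in quiescence and in the response to radiation. Because p53 is controlled mainly as a protein, its target transcripts say more about its activity than its own transcript does.

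Each genotype is 1 library, so no value below has a replicate check and no test between genotypes was possible. Intervals are exact 95% intervals for counting error only and leave out differences between mice, captures and sequencing runs. The libraries held 8612217 (Id2+/+) and 17140713 (Id2-deleted) unique molecular identifiers (UMIs, each 1 captured transcript). After clusters of other cell types were removed, 262 and 418 cells were retained, with medians of 7081 and 9663 UMIs per cell. They are called HSCs after their sort. Clusters with megakaryocyte and platelet markers were kept among them. All 15 HSC markers were detected in both, at summed levels of 1532 and 1141 CPM (UMIs per 1000000 UMIs of the cells summed), against 195 to 228 CPM (Id2+/+) and 108 to 201 CPM (Id2-deleted) in the removed cells. The summed HSC marker ratio of Id2-deleted over Id2+/+ was 0.745 (0.713 to 0.778), with 0 of 15 markers higher by any amount. The 12 megakaryocyte and platelet markers summed to 1435 and 2151 CPM, a ratio of 1.5 (1.44 to 1.56), with 5 of 11 tested past 1.5-fold higher. Summed neutrophil, erythroid and B cell markers had ratios of 0.596, 0.857 and 0.493. Mast cell and basophil markers had 0.753, endothelial and stromal 0.531, T and NK cell 1.20, and monocyte and macrophage 1.07. Of 8 sub-clusters of the retained cells, 2 with nearly all their cells from the Id2-deleted library were led by genes of other lineages. A sub-cluster of 72 cells had 2 B cell markers and a monocyte marker among its top 10 genes. Another of 65 cells had 5 megakaryocyte and platelet markers there, and 6 past a log2 fold of 1. A sub-cluster of 60 cells, 57 of them Id2-deleted, also had 6 past that fold, with *Pf4* in its top 10. In a sub-cluster of 74 Id2+/+ cells, 3 were past it. The study describes platelet-biased HSCs, which express *Pf4* and *Vwf*, as a class of HSCs enriched after *Id2* loss. The part of this mix in the member ratios was not tested beyond leaving these cells out, as given with the ratios. The removed cells were 44 and 169 erythroid-like and 27 and 38 neutrophil-like cells. One cell barcode was shared between the libraries, and 0 among retained cells. One clause of the labels names Id2+/+ bones as the source of the deleted cells, whereas title and genotype field give the deletion. *Id2* had 22 UMIs in the retained Id2+/+ HSCs and 0 in the Id2-deleted HSCs, where 0 of 418 cells allows a share of up to 0.718% (the limit of 3 counts; the upper Clopper-Pearson bound is 0.879%). Free RNA, estimated from hemoglobin, made up 10.5% and 5.41% of the UMIs of retained cells, and the level of each gene in empty droplets (1 to 100 UMIs) is therefore given as well.

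Across the retained HSCs, the intervals of 9 of the 10 ratios between libraries held 1, and that of *Ccng1* lay below 1. Of the 10465 genes with 20 UMIs or more, 10.2% had intervals above 1 and 13.2% below 1, so 1 of 10 is near the share of all genes. These are ratios of CPM, and the median gene had a ratio of 0.943. *Trp53* itself had 578 UMIs or 271 CPM (249 to 294) in Id2+/+ HSCs and 1357 UMIs or 288 CPM (273 to 304) in Id2-deleted HSCs. The ratio of Id2-deleted over Id2+/+ was 1.06 (0.964 to 1.17). Relative to the median gene it was 1.13 (1.02 to 1.25), so whether its interval holds 1 depends on the scaling. It was by far the most abundant of the 10, with a UMI in 82.8% of Id2+/+ and 94.3% of Id2-deleted cells. After each cell was thinned to 5800 UMIs (66 shallower Id2+/+ cells and 0 Id2-deleted cells were dropped), these shares were 77.0% (70.5 to 82.7) and 82.1% (78.0 to 85.6). The gene lies at chr11:69580348-69591873 (GRCm38.p6, RefSeq) and is protein coding, as are the other 9.

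*Mdm2* (chr10:117688875-117710758), both the main inhibitor of p53 and one of its targets, had 90 UMIs or 42.2 CPM in Id2+/+ and 182 UMIs or 38.6 CPM in Id2-deleted HSCs. Its ratio was 0.916 (0.708 to 1.19), an interval that holds 1. A shift of more than about 1.5-fold in either direction therefore lay outside the counting interval for both *Trp53* and its inhibitor.

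*Ccng1*, which encodes cyclin G1, a p53 target that recruits a phosphatase to MDM2, was the 1 member of 10 whose interval left out 1, as 13.2% of all genes did in the same direction. It had 93 UMIs or 43.6 CPM (35.2 to 53.4) in Id2+/+ HSCs and 145 UMIs or 30.8 CPM (26.0 to 36.2) in Id2-deleted HSCs, a ratio of 0.706 (0.541 to 0.926). Relative to the median gene the ratio was 0.749 (0.574 to 0.983). The interval held 1 in cells of low (0.528 to 1.35) and high (0.550 to 1.66) cell cycle share and in cells with Y-linked UMIs only (0.374 to 1.09), subsets with fewer UMIs. The gene lies at chr11:40748552-40755309. The removed erythroid-like cells gave much the same ratio, 0.672 (0.514 to 0.885), from 52.9 and 35.5 CPM. The empty droplets had 44.7 and 30.2 CPM and a ratio of 0.675 (0.530 to 0.858), but the median gene there had a ratio of 0.792, and relative to it *Ccng1* had 0.852 (0.669 to 1.08), an interval that holds 1. The neutrophil-like cells had 19.5 and 19.9 CPM from only 9 and 14 UMIs. Since 1 library stands for each genotype, genotype and library cannot be told apart.

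*Aen* (chr7:78895927-78911209), a p53-induced nuclease active in apoptosis, was the most abundant target. It had 141 UMIs or 66.1 CPM in Id2+/+ and 298 UMIs or 63.3 CPM in Id2-deleted HSCs, a ratio of 0.957 (0.781 to 1.18). As a fold of upper over lower end, its interval is the narrowest among the 6 targets. Scaling by TMM moved this ratio to 1.03, so no direction is given for *Aen*.

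The other 3 targets were rare. *Phlda3* (chr1:135766085-135769134), a p53-induced inhibitor of AKT, had 9 UMIs (4.22 CPM) and 37 UMIs (7.86 CPM), a ratio of 1.86 (0.883 to 4.39). *Zmat3* (chr3:32334792-32365665), a p53-induced RNA-binding protein, had 8 UMIs (3.75 CPM) and 25 UMIs (5.31 CPM), a ratio of 1.42 (0.619 to 3.63). *Trp53inp1* (chr4:11156441-11174379), a p53-induced nuclear protein, had 6 UMIs (2.81 CPM) and 20 UMIs (4.25 CPM), a ratio of 1.51 (0.585 to 4.59). All 3 values were higher in Id2-deleted HSCs and all 3 intervals hold 1, so at this depth no difference was detectable. In erythroid-like cells the ratios of *Phlda3* and *Zmat3* lay below 1, at 0.770 (0.428 to 1.47) and 0.581 (0.261 to 1.42), and that of *Trp53inp1* above 1, at 1.85 (0.440 to 16.5, from 17 and 2 UMIs).

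The intervals of the 3 kinases also held 1. *Atm* (chr9:53437122-53536828), the kinase that senses double-strand breaks, had 31 UMIs (14.5 CPM) in Id2+/+ and 55 UMIs (11.7 CPM) in Id2-deleted HSCs, a ratio of 0.804 (0.508 to 1.29). *Atr* (chr9:95857597-95953217), the kinase that senses stalled replication forks, had 37 UMIs (17.3 CPM) and 87 UMIs (18.5 CPM), a ratio of 1.07 (0.717 to 1.61). *Chek1* (chr9:36708482-36726658), which encodes the checkpoint kinase CHK1, had 32 UMIs (15 CPM) and 89 UMIs (18.9 CPM), a ratio of 1.26 (0.833 to 1.95). The summed level of the 3 kinases differed by a ratio of 1.05 (0.824 to 1.34). *Atr* overlaps 1700065D16Rik and Gm16794, which have rows of their own with 1 to 5 UMIs each in the retained cells of a library, and the sources used here do not state whether counting used the strand.

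By size alone, 2 of the 10 members were more than 1.5-fold higher in Id2-deleted HSCs (*Phlda3* and *Trp53inp1*) and 0 were more than 1.5-fold lower. Of the 10465 genes whose UMIs summed to 20 or more, 3.87% were past that fold in the higher and 13.2% in the lower direction. Leaving out the 2 sub-clusters led by genes of other lineages (1 Id2+/+ and 136 Id2-deleted cells) gave 2 of 9 members tested higher and 0 lower, against 4.67% and 12.2% of all genes in these cells, with *Ccng1* at 0.703 (0.522 to 0.947) and *Trp53* at 1.06 (0.956 to 1.18). Leaving out all 4 sub-clusters with any such marker and none of HSCs among their top 10 genes (78 and 193 cells) gave 3 of 9 higher and 1 of 9 lower, against 4.88% and 12.8%, with *Ccng1* at 0.694 (0.490 to 0.986), *Trp53* at 1.12 (0.971 to 1.29), *Chek1* at 1.83 and *Atm* at 0.337. Both members counted over all retained cells rest on under 40 UMIs in either library and have intervals that hold 1. The median log2 ratio of the 10 members, with 0.5 added to each count, was 0.08, against -0.09 for all genes. TMM scaling moved every log2 ratio up by 0.11. It left the member count in the lower direction at 0, put *Zmat3* at 1.52 beside the other 2, and turned the split of all genes past 1.5-fold from 405 higher and 1385 lower to 626 higher and 1024 lower.

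**Figure D1:**
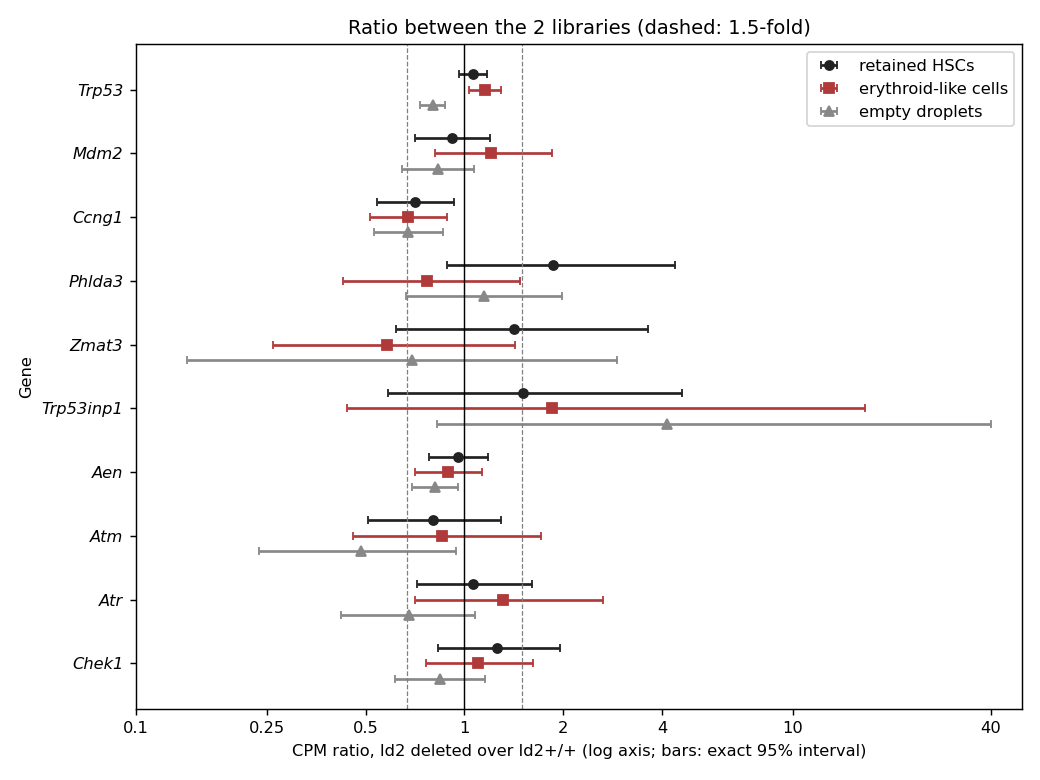
CPM ratio of Id2-deleted over Id2+/+ (horizontal log axis) for each member, in retained HSCs (circles), erythroid-like cells (squares) and empty droplets (triangles), with exact 95% counting intervals and dashed lines at 1.5-fold. The 3 *Ccng1* values, 0.706, 0.672 and 0.675, lie below 1, where the median gene had 0.943, 1.02 and 0.792, and the widest intervals belong to *Phlda3*, *Zmat3* and *Trp53inp1*.

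The 6 targets together gave 347 UMIs or 163 CPM in Id2+/+ HSCs and 707 UMIs or 150 CPM in Id2-deleted HSCs. The summed ratio was 0.923 (0.810 to 1.05). *Aen* supplied 40.6% and 42.1% of these UMIs, *Mdm2* 25.9% and 25.7%, and *Ccng1* 26.8% and 20.5%. The sum was therefore carried by 3 genes, and *Phlda3*, *Zmat3* and *Trp53inp1* each gave at most 5.23%.

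Most HSCs of both libraries held a target UMI. At 5800 UMIs per cell, 63.8% (56.6 to 70.5) of the 196 Id2+/+ HSCs kept and 56.0% (51.1 to 60.8) of the 418 Id2-deleted HSCs had a UMI of any of the 6 targets. Without thinning the order was opposite, 68.7% and 75.8%, with the deeper library higher. The intervals of the thinned shares overlapped, and no order is read from the unthinned ones. UMIs of more than 1 target gene were found in 18.4% and 16.3% of thinned cells. Among thinned Id2+/+ cells, a target UMI was found in 64.2% (56.0 to 71.9) of cells with a *Trp53* UMI and 62.2% (46.5 to 76.2) of cells without one. In Id2-deleted cells these shares were 56.3% (50.8 to 61.6) and 54.7% (42.7 to 66.2). In neither library did the presence of a *Trp53* UMI set apart cells with target UMIs. Subtracting the empty-droplet profile assigned 11.5% of the 347 target UMIs of Id2+/+ and 5.17% of the 707 of Id2-deleted HSCs to free RNA, and the shares of cells were not corrected for it.

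The median HSC of each library held 1 target UMI, and 1 Id2-deleted cell stood far from all others with 17. No Id2+/+ cell had more than 6, and 4 Id2-deleted cells had at least 8. These counts were not thinned, and the Id2-deleted library had more and deeper cells. The 2 Id2-deleted cells with 9 held 31977 and 13835 UMIs, so no difference between libraries is read from the highest counts. The cell with 17 was not deep: it held 8611 UMIs and 3023 detected genes, below the library's median of 9663 UMIs. Its target UMIs were 5 of *Aen*, 4 of *Mdm2*, 4 of *Zmat3*, 3 of *Phlda3* and 1 of *Ccng1*, with 2 of *Trp53*.

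That cell also held UMIs of p53 targets outside the 10 genes. It had 3 of the 17 UMIs of *Cdkn1a*, which encodes the cell cycle inhibitor p21, found in all retained Id2-deleted HSCs. It had 5 of 71 UMIs of *Psrc1*, 4 of 96 UMIs of *Btg2*, an antiproliferative gene, and 7 of 803 UMIs of *Bax*, which encodes a death effector. Single UMIs of *Bbc3* (PUMA), *Fas* and *Sesn2* were present as well. It lay among the cells of low cell cycle share (described after this) and in the sub-cluster led by *Pf4* and *Gp1bb*, platelet lineage genes. The cell was picked for its value and is 1 cell, so these counts are a description. Without the cell with the most target UMIs in each library, *Zmat3* had a ratio of 1.19 and *Phlda3* 1.71.

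**Figure D2:**
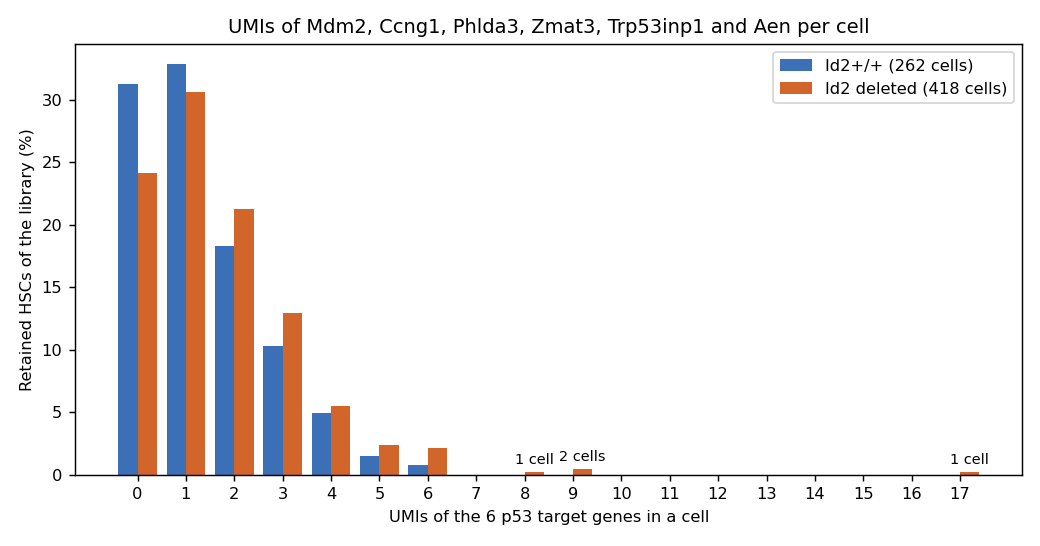
Percent of retained HSCs of each library (vertical axis) by the number of UMIs of the 6 p53 target genes in the cell (horizontal axis), not thinned, for 262 Id2+/+ and 418 Id2-deleted cells. Most cells hold 0 to 3 such UMIs, and 1 Id2-deleted cell holds 17.

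The retained HSCs were next split into a low, a middle and a high range of equal cell number by the share of their UMIs in 66 S phase and G2/M genes, none of them a member. The cuts lay at 0.314% and 0.576% of UMIs, and 177 of 680 cells lay within 10% of a cut, so these are ranges of a score and not cell types. The high range held 22.5% (17.6 to 28.1) of Id2+/+ and 40.2% (35.5 to 45.1) of Id2-deleted HSCs. The libraries thus differed in this mix, and each member is given within ranges as well.

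*Chek1* followed the cell cycle share most closely in both libraries. It had 1.58, 10.2 and 32.1 CPM from the low to the high range of Id2+/+ cells, and 1.96, 14.3 and 28.4 CPM in Id2-deleted cells. High over low range gave a ratio of 20.3 (3.30 to 838, from 23 and 1 UMIs) in Id2+/+ and 14.5 (3.87 to 122, from 69 and 2 UMIs) in Id2-deleted HSCs. With ranges by the G2/M list alone, chosen after seeing the data, these ratios were 7.17 (2.19 to 37.1) and 3.21 (1.62 to 7.04). Free RNA at the share estimated from hemoglobin would bring 2.42 and 1.05 CPM of *Chek1*, beside low-range levels of 1.58 and 1.96 CPM, and at 1 and 2 UMIs the low-range levels could not be told from these. CHK1 acts on replicating DNA, and its transcript is known to peak in S phase. Id2-deleted over Id2+/+ was 1.24 (0.0646 to 73.2, from 2 and 1 UMIs) in the low, 1.39 (0.576 to 3.70) in the middle and 0.887 (0.546 to 1.49) in the high range, against 1.26 over all retained cells, and each interval holds 1.

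*Ccng1* went the other way in both libraries. It had 53.6, 51.2 and 26.5 CPM in Id2+/+ and 45.0, 30.9 and 24.7 CPM in Id2-deleted cells. High over low range was 0.494 (0.266 to 0.891) and 0.549 (0.368 to 0.825). Within ranges, Id2-deleted over Id2+/+ was 0.840 (0.528 to 1.35) in the low, 0.604 (0.378 to 0.963) in the middle and 0.934 (0.550 to 1.66) in the high range. The difference between libraries in *Ccng1* was thus smaller than the pooled one in 2 of the 3 ranges.

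*Zmat3*, on 8 and 25 UMIs, had too few for a direction in either library. *Atm* ran in opposite directions in the libraries. In Id2+/+ cells it had 30.0 CPM (19 UMIs) in the low, 8.95 CPM (7 UMIs) in the middle and 6.97 CPM (5 UMIs) in the high range. In Id2-deleted cells it had 6.85 CPM (7 UMIs), 9.50 CPM (12 UMIs) and 14.8 CPM (36 UMIs). Id2-deleted over Id2+/+ was accordingly 0.229 (0.0812 to 0.568) in the low range and 2.13 (0.833 to 6.95) in the high range, intervals that do not overlap. Of the 31 *Atm* UMIs in retained Id2+/+ HSCs, 23 lay in the sub-cluster led by *Meg3*, *Fos* and *Dusp1*. This sub-cluster also held 175 of the 262 retained Id2+/+ cells. Its *Atm* level was 19.9 CPM (12.6 to 29.9), against 14.5 CPM (9.87 to 20.6) over all retained Id2+/+ cells. *Fos* and *Dusp1* are immediate early genes that cell dissociation can induce. Of 14 dissociation stress genes tested, 10 were more than 1.5-fold lower in Id2-deleted HSCs, against 13.2% of all genes. Their part in the *Atm* difference was not tested.

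*Trp53* had 235, 281 and 291 CPM in Id2+/+ and 277, 257 and 309 CPM in Id2-deleted cells. *Mdm2* had 58.3, 37.1 and 33.5 CPM, and 48.0, 30.9 and 38.8 CPM. The low range had the highest *Mdm2* level in each library, with a high over low ratio of 0.574 (0.328 to 0.985) and 0.808 (0.566 to 1.17). Of the members with at least 20 UMIs over both ranges, 1 of 7 was past 1.5-fold higher and 3 of 7 lower in the high range of Id2+/+ cells, where 17.6% and 20.4% of all genes were. In Id2-deleted cells 2 of 8 were higher and 2 of 8 lower, against 15.8% and 20.4%. Only *Chek1* was past the fold in the higher direction, and only *Ccng1* in the lower direction, in both libraries. Between genotypes, 0 of 6 members tested were past the fold higher and 1 of 6 lower (*Atm*) in the low range, against 8.15% and 12.6% of all genes. The middle range gave 0 of 6 higher and 1 of 6 lower (*Ccng1*), against 5.75% and 13.9%, and the high range 1 of 7 higher (*Atm*) and 0 of 7 lower, against 8.11% and 12%.

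The pooled mice were of both sexes, as *Xist* and Y-linked UMIs in separate cells showed, and the mix differed: 84 Id2+/+ and 232 Id2-deleted HSCs had Xist and no Y-linked UMIs, and 93 and 90 had the reverse. *Ccng1* had a ratio of 0.607 (0.409 to 0.914) among the former and 0.640 (0.374 to 1.09) among the latter. *Trp53* had 1.10 (0.940 to 1.28) and 1.11 (0.920 to 1.35). *Atm* had 0.914 and 1.41 (0.534 to 4.14), the latter on the other side of 1 from its ratio over all retained cells. *Phlda3* stood at 3.99 (1.003 to 34.6, from 27 and 2 UMIs, an interval that leaves out 1) in the Xist cells and 0.353 (0.0319 to 2.46, from 2 and 4 UMIs) in the Y-linked cells. *Ccng1* and *Trp53* thus kept their sides of 1 in both, while the higher *Phlda3* value was found in one. In the Xist cells 2 of 8 members tested were past the fold higher (*Phlda3* and *Chek1*) and 1 of 8 lower, against 7.7% and 12.2% of genes, and in the Y-linked cells 1 of 7 higher (*Atr*) and 1 of 7 lower, against 7.58% and 16.1%.

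**Figure D3:**
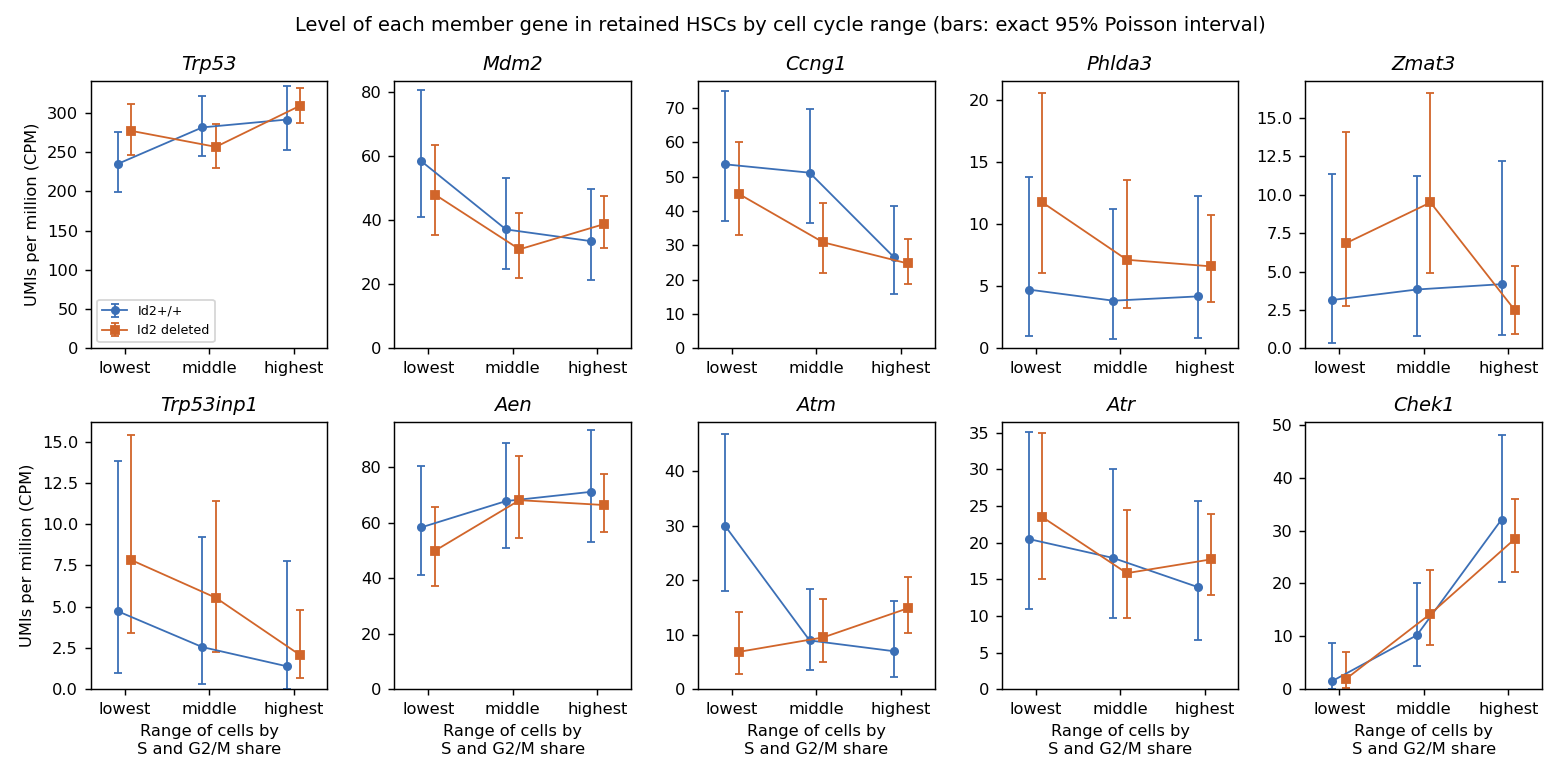
Level in CPM (vertical axis, a separate scale per gene) of each member in retained HSCs by low, middle and high range of the share of UMIs in S phase and G2/M genes (horizontal axis), for Id2+/+ (circles) and Id2-deleted (squares) cells, with exact 95% Poisson intervals. *Chek1* goes from 1.58 to 32.1 and from 1.96 to 28.4, *Ccng1* goes down in both libraries, and *Atm* goes in opposite directions.

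The removed cells gave a second view of the members. Over retained cells, the median gene had log2 ratios of -0.34 (Id2+/+) and -0.32 (Id2-deleted) in erythroid-like cells. In neutrophil-like cells it had -0.45 and -0.53. The CPM ratios between cell kinds given here are not relative to the median gene. *Trp53* had 132 CPM (61 UMIs) and 152 CPM (107 UMIs) in Id2+/+ and Id2-deleted neutrophil-like cells, below all other kinds. Neutrophil-like over retained cells was 0.488 (0.368 to 0.635) in the Id2+/+ library and 0.529 (0.430 to 0.644) in the Id2-deleted one. Erythroid-like cells had 271 and 313 CPM, and differed from retained HSCs by a ratio of 0.999 (0.876 to 1.14) in one library and 1.09 (1.01 to 1.17) in the other. HSCs and erythroid-like cells thus both lay above neutrophil-like cells in both libraries. The erythroid-like over retained intervals lay above the ratio of the median gene. Whether *Trp53* differs between erythroid-like cells and HSCs therefore depends on the scaling.

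*Phlda3* and *Zmat3* had 0 UMIs in the neutrophil-like cells of both libraries. The 0 of 27 and 0 of 38 cells allow shares of up to 11.1% and 7.89% of cells with a UMI (the limit of 3 counts; the upper Clopper-Pearson bounds are 12.8% and 9.25%), at median depths of 17626 and 18347.5 UMIs. For *Phlda3* in Id2-deleted cells, neutrophil-like over retained cells had an upper bound of 0.703. In erythroid-like cells *Phlda3* had 10.7 CPM (15 UMIs) and 8.25 CPM (53 UMIs), and *Zmat3* had 6.43 CPM (9 UMIs) and 3.74 CPM (24 UMIs). *Trp53inp1* had 1.43 and 2.65 CPM in erythroid-like cells and 0 and 2 UMIs in neutrophil-like cells, too few for an order.

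The highest *Mdm2* level was in HSCs and the highest *Chek1* level in erythroid-like cells in both libraries, but neither could be told from the level in neutrophil-like cells. *Mdm2* had 21.4 and 25.8 CPM in erythroid-like cells, 0.508 (0.324 to 0.776) and 0.669 (0.539 to 0.830) times its level in retained cells. The interval reached past the ratio of the median gene in the Id2-deleted library but not in the Id2+/+ library. *Mdm2* had 26.0 and 32.8 CPM in neutrophil-like cells, with HSCs over neutrophil-like cells at 1.62 (0.885 to 3.26) and 1.18 (0.762 to 1.91). *Chek1* had 25.7 and 28.2 CPM in erythroid-like cells, 1.71 (1.04 to 2.85) and 1.49 (1.15 to 1.94) times its level in retained cells, and 1.7 (0.745 to 4.52) and 1.32 (0.779 to 2.41) times its level in neutrophil-like cells. All 34 G2/M genes were more than 1.5-fold higher in erythroid-like than in retained cells of both libraries, and the part of cycling in the *Chek1* order was not tested.

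By CPM, *Atr* was lower in erythroid-like than in retained cells, with 8.57 and 11.2 CPM and ratios of 0.494 (0.235 to 0.969) and 0.607 (0.438 to 0.839). Its log2 ratios were -0.98 and -0.72, against -0.34 and -0.32 for the median gene. Both intervals reached past the median gene, so a difference beyond it was not shown. In neutrophil-like cells it had 5 UMIs and 1 UMI. *Atm* had 9.29 and 7.94 CPM in erythroid-like and 15.2 and 11.4 CPM in neutrophil-like cells, and none of its neighbors in that order differed beyond counting error. *Aen* had 65.0 and 57.8 CPM in erythroid-like and 47.6 and 39.9 CPM in neutrophil-like cells, and no interval between neighboring kinds left out 1, while neutrophil-like over retained cells was 0.721 (0.438 to 1.13) and 0.630 (0.412 to 0.930). *Ccng1* in erythroid-like over neutrophil-like cells was 2.71 (1.35 to 6.16) and 1.78 (1.04 to 3.31), with retained HSCs between them in value, though erythroid-like over retained cells, 1.21 (0.881 to 1.66) and 1.15 (0.932 to 1.43), and in the Id2-deleted library retained over neutrophil-like cells, 1.54 (0.891 to 2.89), had intervals that hold 1.

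Against retained cells, 2 of 8 members tested were past 1.5-fold higher and 3 of 8 lower in Id2+/+ erythroid-like cells, where 16.3% and 41.9% of all genes were. In Id2-deleted erythroid-like cells 0 of 10 were higher and 2 of 10 lower, against 16.8% and 41.4%. In neutrophil-like cells 0 of 7 (Id2+/+) and 0 of 10 (Id2-deleted) were higher, against 10.7% and 9.75%, and 4 of 7 and 6 of 10 lower, against 46.6% and 50.1%. Between genotypes, *Zmat3* was the 1 member past the fold among erythroid-like cells (6.48% of genes higher, 10.9% lower), and 0 of 5 members tested were among neutrophil-like cells (8.49% and 12.7%).

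In empty droplets, *Trp53* had 299 and 240 CPM, a ratio of 0.801 (0.735 to 0.874), near the 0.792 of the median gene there. Its ratio in erythroid-like cells was 1.16 (1.04 to 1.29), against 1.02 for the median gene. *Aen* had 89.1 and 72.5 CPM, 1.35 (1.11 to 1.65) and 1.15 (0.970 to 1.35) times its level in retained cells, and *Chek1* had 23.1 and 19.5 CPM. *Zmat3* had 1.51 and 1.04 CPM and *Atm* 7.53 and 3.64 CPM, values below those in retained cells. After the empty-droplet profile was subtracted, no ratio of a member left its counting interval.

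**Figure D4:**
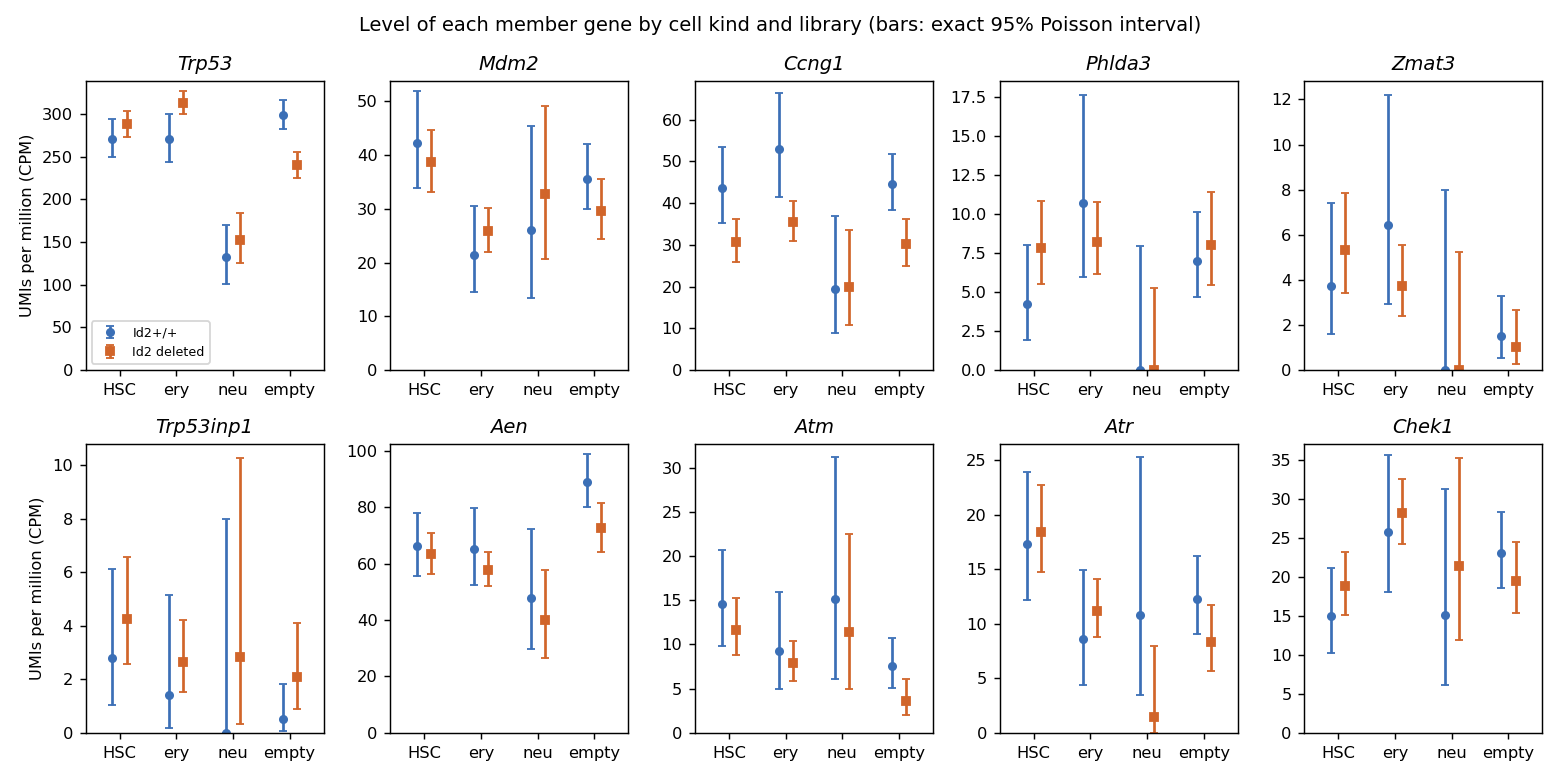
Level in CPM (vertical axis, a separate scale per gene) of each member in retained HSCs (HSC), erythroid-like cells (ery), neutrophil-like cells (neu) and empty droplets (empty), for Id2+/+ (circles) and Id2-deleted (squares) libraries, with exact 95% Poisson intervals. *Trp53* is lowest in neutrophil-like cells (132 and 152), where *Phlda3* and *Zmat3* are at 0.

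Within the retained cells, 8 sub-clusters were found and most held cells of 1 library. *Trp53* varied least among them, from 241 to 311 CPM. *Aen* ran from 40.8 to 78.9 CPM, *Mdm2* from 21.2 to 59.3 CPM and *Ccng1* from 19.8 to 55.5 CPM. *Ccng1* was lowest in the sub-cluster led by *Pbk* and *Aurkb*, mitotic genes, which also had *Pf4* among its top 10 genes. It was highest in the Id2+/+ sub-cluster led by *Meg3* and *Fos*. *Chek1* ran from 4.33 to 29.9 CPM, with its lowest levels in that same cluster (4.33) and in the Id2-deleted one led by *Xist*, *Nceh1* and *Myl10* (4.53). Its lowest and highest levels both lay in sub-clusters of Id2+/+ cells alone (175 and 74 cells), and those of *Mdm2* in sub-clusters of mostly Id2-deleted cells (71 of 72 and 47 of 56).

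The rest of the pathway was read from lists of textbook members, whose counts past 1.5-fold stand against the 3.87% higher and 13.2% lower of all genes. Of 41 other p53 target genes, 40 were in the matrices and 29 had at least 20 UMIs, of which 1 was more than 1.5-fold higher and 3 were lower in Id2-deleted HSCs, with a median log2 ratio of -0.09. Named after their values were seen, these were *Pvt1* (1.55) and *Plk2* (0.244), *Polk* (0.469) and *Ddit4*. The lowest of those with at least 100 UMIs were *Ddit4*, an inhibitor of mTORC1, at 0.663 (0.486 to 0.910), *Dcxr* at 0.694 (0.499 to 0.972), and *Sesn1*, a stress-induced antioxidant regulator, at 0.715 (0.545 to 0.941). The highest were *Rps27l*, a ribosomal protein paralog, at 1.34 (1.26 to 1.43), *Ckap2*, also on the G2/M list, at 1.21 (0.829 to 1.79), and *Triap1* at 1.20 (0.943 to 1.53). The list summed to 3485 UMIs in Id2+/+ and 8249 in Id2-deleted HSCs, a ratio of 1.07 (1.03 to 1.12). Of these UMIs *Rps27l* alone gave 1230 and 3645, and without it the summed ratio lies below 1. Targets thus lay on both sides of 1, with a median equal to that of all genes to 2 decimals. *Cdkn1a* had 6 UMIs in Id2+/+ and 17 in Id2-deleted HSCs, a ratio of 1.28 (0.483 to 3.98).

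Of 30 p53 regulators and partners, 23 were tested, of which 0 were past the fold higher and 1 was lower (all genes 3.87% and 13.2%), with a median of -0.05. That 1 was *Ndn*, which encodes necdin, a p53-binding protein linked to HSC quiescence, with 51.6 and 33.3 CPM and a ratio of 0.646 (0.503 to 0.833). *Pml*, the nuclear body protein, had 0.696 (0.533 to 0.914) and *Ppp1r13b* 0.700 (0.472 to 1.05). At the other end stood *Rchy1*, a p53 ubiquitin ligase, at 1.23 (1.02 to 1.48), *Ppm1d*, the WIP1 phosphatase, at 1.20 (0.827 to 1.77), and *Usp10*, a p53 deubiquitinase, at 1.12 (0.836 to 1.52).

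Of 44 other ATM and ATR pathway genes, 41 were tested, of which 3 were higher and 3 lower, with a median of 0.09, beside the same 3.87% and 13.2% of all genes. Among those with at least 100 UMIs, the highest were *Rnf168*, a ubiquitin ligase at double-strand breaks, at 1.74 (1.22 to 2.54), *Clspn*, the claspin adaptor of CHK1, at 1.65 (1.13 to 2.45), and *Timeless*, a replication fork protein, at 1.60 (1.16 to 2.26). The lowest of these were *Rad9a*, a subunit of the checkpoint clamp, at 0.646 (0.438 to 0.958), *Mapkapk2* at 0.674 (0.505 to 0.903) and *Smg1* at 0.684 (0.474 to 0.994). The other genes past the fold were *Prkdc*, which encodes the DNA-PK catalytic subunit, at 0.597 (0.331 to 1.09) and *Cdc25c* at 0.453 (0.186 to 1.10), also named after their values were seen. Beside this, 4 of 32 S phase genes and 10 of 34 G2/M genes were past the fold higher and 0 of either were lower, and their part in the levels of *Clspn* and *Timeless* was not tested.

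**Figure D5:**
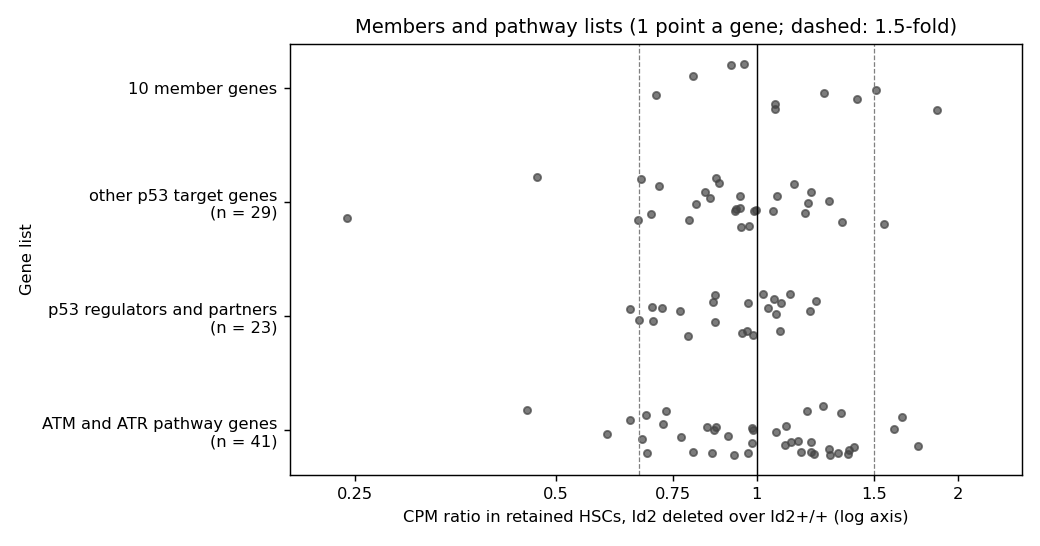
CPM ratio of Id2-deleted over Id2+/+ in retained HSCs (horizontal log axis) for the 10 members and for the genes with at least 20 UMIs on 3 pathway lists, 1 point a gene, spread vertically for display, with dashed lines at 1.5-fold. The members lie between 0.706 and 1.86, and 1 of 29, 0 of 23 and 3 of 41 genes of the other lists lie past 1.5-fold higher.

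The genes whose levels were most like each member were found by Pearson's r of log2(CPM + 10) over 6 profiles (3 cell kinds in 2 libraries) among 6785 genes with at least 200 UMIs. With 6 points that share libraries, many genes reach a high r by arithmetic, and the names are given as a description. For *Trp53* they were *Stag1*, *Bclaf1* and *Phc2*, for *Mdm2* *Nt5dc1*, *Ttc19* and *Dfna5*, and for *Ccng1* *Atxn2l*, *Ccdc137* and *Gm4799*. For *Aen* they were *Faap100*, *Mettl13* and *Snhg12*, for *Phlda3* *Rrp9*, *Rbm10* and *Rad50*, for *Zmat3* *Mef2d*, *Prpf4b* and *Zfp637*, and for *Trp53inp1* *Mrps9*, *Immp1l* and *Dffb*. For *Atm* they were *Mthfsl*, *Pias2* and *Oxld1*, for *Atr* *Ei24*, *Gpbp1* and *Amz2*, and for *Chek1* *Emc7*, *Ndufab1* and *Mrps18b*. The 30 values of r ran from 0.983 to 0.999.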

How the data were processed

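The authors deposited, for each library, a matrix of UMI counts per gene and barcode, not normalized, and the submitters' processing notes name Cell Ranger 2.2.0 and genome build mm10. From these counts, barcodes with at least 10% of the 99th percentile of UMIs among the 1000 deepest were called cells (349 and 632, against 383 and 686 in the labels), and those under 10% mitochondrial UMIs were kept (333 and 625). Doublets were not called. Cells were scaled to 10000, log-transformed and clustered on 2000 variable genes, 20 principal components and 15 neighbors (scanpy 1.11.5, Leiden resolution 1, leidenalg 0.10.2, seed 0; 0.8 for retained cells). Clusters of other cell types were removed. Such a cluster had HSC markers below average and 4 or more markers of that type past a log2 fold of 1. Each of these markers was in 25% of its cells or more. Megakaryocyte and platelet markers were exempt from this rule, as the study names platelet-biased HSCs as a class. Clusters of 102, 47 and 26 cells had 6, 5 and 7 such markers past the fold and were kept. Raw UMIs were summed per library and cell kind. Levels are CPM with exact Poisson intervals, ratios have exact conditional intervals, and shares have Clopper-Pearson intervals (scipy 1.17.1). A CPM of UMIs counts each captured transcript once and was not divided by gene length. TMM factors came from edgeR 4.0.16, used for scaling only. The fold rule was 1.5 with at least 20 UMIs over both groups. The interval code was tested on simulated data.

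The members and gene lists were chosen with earlier results of these data known. The text names all members, the 3 highest and 3 lowest ratios of each pathway list among genes with at least 100 UMIs, the 3 genes most like each member, and *Id2*. Genes named from the cell with most target UMIs were chosen after its values were seen. Coordinates are from RefSeq GRCm38.p6, in which all 10 members matched by symbol. Promoter and protein sequences were not analysed here. Alternatives covered cell calling, the mitochondrial limit, cluster removal and resolution, free RNA, scaling, weighting and depth of cells, the UMI minimum, the fold, the cell cycle range, the sex-linked genes of cells and, added after seeing the data, sub-clusters led by markers of other cell types.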

Additional observations from a re-analysis of the deposited data

Results flagged for a closer look

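The ratio of *Atm* between the libraries stood on opposite sides of 1 in cells of different cell cycle share. Id2-deleted over Id2+/+ was 0.229 in the low and 2.13 in the high cell cycle range of retained HSCs. The counting intervals, 0.0812 to 0.568 and 0.833 to 6.95, do not overlap, but with 1 library per genotype the difference was not tested. The values rest on 7 and 19 UMIs in the low and 36 and 5 UMIs in the high range. Ranges cut in 4 other ways, chosen after seeing the data, gave 0.157 to 0.558 in the low and 1.87 to 3.34 in the high range. With ranges by the G2/M list alone, the interval of the low range (0.229 to 1.36) held 1.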

How the results depend on the processing

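No paired analysis was possible because there is only 1 library of each genotype. The count of members past 1.5-fold higher (2) became 1 with no cluster removed, with the empty-droplet profile subtracted, with cells thinned to equal depth and where cells had Y-linked UMIs but none of Xist. It became 0 with at least 50 UMIs, at 2-fold and in the low and middle cell cycle ranges, 1 in the high range (*Atm*), and 3 with TMM scaling and with the 4 sub-clusters of the next sentence left out. With all 4 sub-clusters led by any marker of another cell type left out, a setting chosen after seeing the data, 1 member was lower (*Atm*, 0.337). The count lower (0) also became 1 by the mean of each cell's CPM (*Atm*, 0.634), in the low (*Atm*, 0.229) and middle ranges (*Ccng1*, 0.604), and in cells with only Xist (*Ccng1*, 0.607) or only Y-linked UMIs (*Ccng1*, 0.640). The share of cells with a target UMI was 75.8% in Id2-deleted HSCs without thinning, 24.5% (Id2+/+) and 21.3% (Id2-deleted) for at least 2 UMIs, and 55.8% in Id2+/+ cells with no cluster removed. The median log2 ratio of members ran from -0.24 to 0.19. *Ccng1* ran from 0.607 to 0.840 and *Trp53* from 1.06 to 1.18 over 16 alternatives, 3 of which (no mitochondrial limit, resolution 0.5, at least 50 UMIs) leave both values as they were, and the middle and high cell cycle ranges widen this to 0.604 and 0.934 for *Ccng1* and to 0.912 (0.766 to 1.09) for *Trp53*. *Atm* (0.804) turned to 1.41 in cells with only Y-linked UMIs. *Chek1* ran from 0.706 to 2.03 and *Atr* from 0.887 to 1.94 (0.885 in the middle range), with the ends of *Chek1* in the cells split by sex-linked genes. *Chek1* in the high over the low range of Id2-deleted cells was 3.21 with ranges by the G2/M list alone, a setting chosen after seeing the data. Depth limits *Phlda3*, *Zmat3* and *Trp53inp1*, whose intervals allow differences of over 3-fold.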
